A study of Schizosaccharomyces pombe with 78 samples.

Results

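Nrm1-SD and Nrm1 cells were compared at 120 and 140 min after release from a *cdc25-22* block, the interval in which the MBF-dependent genes of Nrm1 cells were at their low point between 2 waves of transcription. The comparison used 8 of the 78 libraries of the series, 2 replicates of each strain at each of the 2 time points, and it was always made within a time point on log2(normalized count + 1). The groups were Nrm1-SD cells, with the genotype *cdc25-22 nrm1-SD-HA*, in which the CDK phosphorylation sites of the HA-tagged Nrm1 are replaced by acidic residues, and Nrm1 cells, which carry wild-type Nrm1 with the same tag and are also *cdc25-22*. Both were grown in minimal medium, blocked before mitosis at the restrictive temperature and released by cooling, and polyA RNA was sampled every 20 min. Each strain is 1 yeast line, so any other difference between the lines goes with the allele and cannot be told apart from it. The replicates were biological duplicates.

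MBF is the transcription factor that drives the G1/S wave of gene expression in fission yeast. It is built on Cdc10, Res1 and Res2, its co-activators are Rep1 and Rep2, and the co-repressors Nrm1 and Yox1 sit on it when the wave ends and hold its targets low through G2. In mitosis the cyclin-dependent kinase phosphorylates Nrm1, which comes off the complex. Replacing the sites by acidic residues is meant to mimic the phosphorylated form, and the comparison asks what level the targets of such a mutant have in G2, when the repressors normally act. Fission yeast passes G1 and S phase about when the preceding division is being completed, which is why histone and cell separation genes serve as landmarks in these cultures.

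Read totals ran between 3493854 and 5352878 in Nrm1-SD and between 5667919 and 7892952 in Nrm1, beside 2685381 to 10469416 in all 78 libraries. Every Nrm1-SD library thus had fewer reads than every Nrm1 library, so depth goes with the strain in this comparison. Features were tested with limma where their normalized count averaged at least 10 over all libraries, which left 7431, and a feature was called at a Benjamini-Hochberg adjusted p-value under 0.1. Over both time points 180 features (2.42%) were called, 86 higher (1.16%) and 94 lower (1.26%) in Nrm1-SD. Among the called features 145 were protein-coding and 30 were long noncoding RNAs. The strains did not overlap at either time for 173 of the 180, beside 14.0% of all features, from the same libraries that gave the calls. The called differences were mostly small, with a median size of 0.52 (log2) for those higher and 0.26 for those lower, and 22 were at least 2-fold higher and 17 at least 2-fold lower. With total-count scaling the split was 102 higher and 62 lower. Without replicate 2 of Nrm1 at 120 min, 110 features were called, 57 higher and 53 lower.

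The time points matched the label of a G2 trough in Nrm1 cells only in part. A level here is the mean log2 level of a list of genes in a library minus the mean of asynchronous Nrm1. The 19 MBF targets were at −0.41 and −0.45 at 120 min and at −0.39 and −0.41 at 140 min in Nrm1, against 1.49 and 1.46 at their maximum at 60 min. The 10 genes of cytokinesis and cell separation were at −1.83 and −2.02 at 120 min and −1.90 and −2.19 at 140 min. The 9 core histone genes, which are transcribed in S phase, were still falling, with −0.16 and −0.26 at 120 min, −1.03 and −1.26 at 140 min and a minimum of −1.36 and −1.46 at 160 min. The interval therefore ran from the tail of the histone wave to the start of the next rise of MBF targets, which had reached 0.42 and 0.45 at 160 min.

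Of the same landmarks in Nrm1-SD, the cytokinesis list was within the spread of Nrm1, and the mitosis, histone and MBF lists were above it. The libraries of a strain with the same replicate number were averaged over both time points as 1 culture, which the labels do not state. Cytokinesis and cell separation genes were at −1.97 ± 0.16 in Nrm1-SD and −1.99 ± 0.17 in Nrm1 (SD, n = 2 cultures each). Mitosis genes were at −0.30 ± 0.011 in Nrm1-SD and −0.37 ± 0.018 in Nrm1. Histone genes were at −0.44 ± 0.015 in Nrm1-SD and −0.67 ± 0.12 in Nrm1, a difference of 0.23. MBF targets were at 0.062 ± 0.026 in Nrm1-SD and −0.42 ± 0.021 in Nrm1, a difference of 0.48. The mitosis, histone and MBF differences were each larger than the SD between cultures of either strain. In these bulk cultures a higher level per cell and a larger share of cells outside G2 cannot be told apart.

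**Figure D1:**
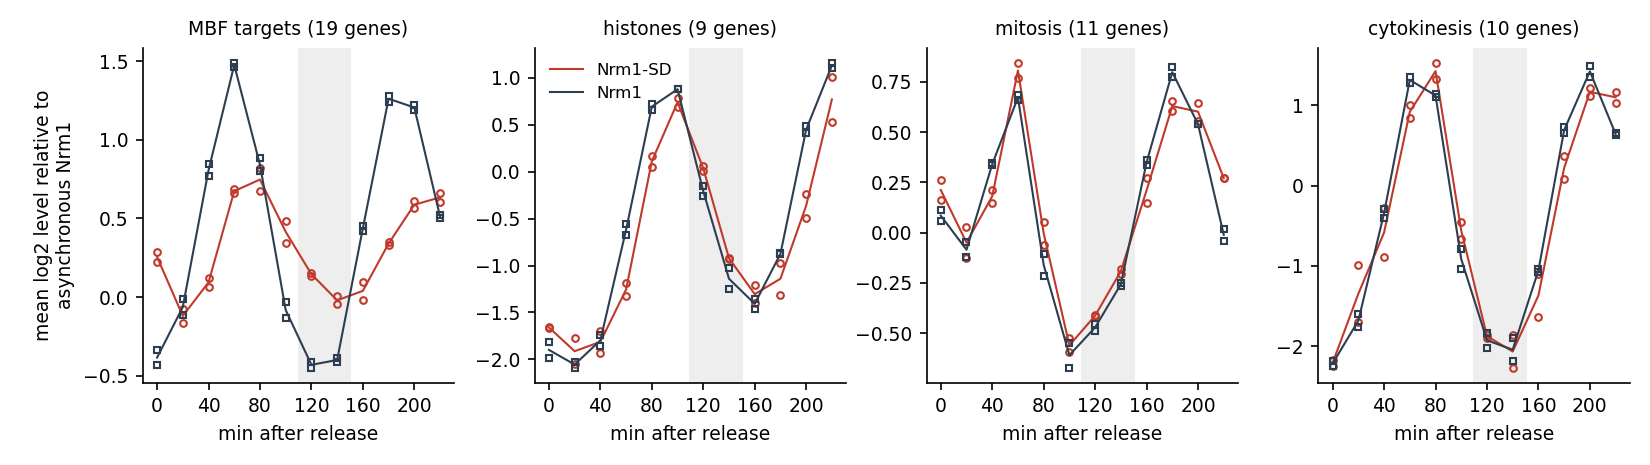
Mean log2 level of 4 gene lists relative to asynchronous Nrm1 (y axis) against min after release (x axis), with 1 point per library of Nrm1-SD and of Nrm1, lines through the means and the 120 to 140 min interval shaded. In the shaded interval the cytokinesis lists of the strains nearly coincide, the mitosis list of Nrm1-SD is 0.062 above Nrm1, the histone list of Nrm1-SD is 0.23 above Nrm1, and the MBF targets of Nrm1-SD are 0.48 above Nrm1.

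The list of MBF targets was written with earlier results of these data known, so the counts describe it and are no independent support. A total of 15 of the 19 MBF targets were higher in Nrm1-SD over both time points and none was lower, beside 1.16% of all features called higher. Their median difference was 0.40 (log2), beside −0.0033 over all features, and 18 of the 19 estimates were above 0. At 120 min 14 of the 19 were called higher, beside 0.592% of all features called higher and 1.09% called in either direction. At 140 min it was 12, beside 0.538% and 0.915%. In the 15 genes both Nrm1-SD libraries lay above both Nrm1 libraries at 120 and again at 140 min, which held in that direction for 6.43% of all features. As the genes were called in these libraries, this only describes them. The count was 14 or 15 when each of the 8 libraries was left out in turn. Changes were moderate, and only *cdt2* reached 2-fold.

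The regulatory sequence upstream of the 6 MBF targets with the largest differences is given because MBF binds the MluI cell cycle box, ACGCGT, and its shorter core, ACGCG. The 140 bases before the annotated gene start are shown 5′ to 3′ in the direction of the gene, from the genome sequence ASM294v3 of RefSeq, with every ACGCGT and every ACGCG on either strand in capitals, adjoining matches running together.
*cdt2* (chrI:2035705-2035844, minus strand): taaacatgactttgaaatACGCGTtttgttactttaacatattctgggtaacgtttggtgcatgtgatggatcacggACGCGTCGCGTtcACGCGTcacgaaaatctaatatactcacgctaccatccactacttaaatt
*cdc22* (chrI:4226830-4226969, plus strand): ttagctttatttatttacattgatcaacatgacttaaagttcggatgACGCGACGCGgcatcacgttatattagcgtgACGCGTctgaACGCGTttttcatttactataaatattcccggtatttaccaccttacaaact
*cdc18* (chrII:2217985-2218124, minus strand): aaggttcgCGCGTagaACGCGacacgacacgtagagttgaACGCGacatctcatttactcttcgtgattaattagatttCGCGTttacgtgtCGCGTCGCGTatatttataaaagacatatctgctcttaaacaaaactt
*tos4* (chrI:1922403-1922542, plus strand): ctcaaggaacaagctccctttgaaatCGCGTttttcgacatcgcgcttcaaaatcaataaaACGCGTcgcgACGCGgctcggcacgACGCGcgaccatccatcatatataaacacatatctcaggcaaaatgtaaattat
*yox1* (chrII:1648092-1648231, plus strand): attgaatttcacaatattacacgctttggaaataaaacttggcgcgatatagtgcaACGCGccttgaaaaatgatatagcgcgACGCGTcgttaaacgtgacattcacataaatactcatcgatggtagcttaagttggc
*cdt1* (chrII:477252-477391, plus strand): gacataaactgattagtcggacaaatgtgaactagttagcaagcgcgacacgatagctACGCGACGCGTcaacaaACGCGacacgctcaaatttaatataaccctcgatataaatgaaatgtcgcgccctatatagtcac
The windows of *cdt2* and *cdt1* overlapped no other annotated gene, while those of *cdc22*, *cdc18*, *tos4* and *yox1* each overlapped a long noncoding RNA of the other strand. The core was counted on each strand, and a complete hexamer, which reads the same on both, counts once for each. Matches are therefore not all separate sites. By this count all 6 windows hold at least 3 matches of the core, with 7 in *cdt2*. *cdc18* holds 6 without any complete hexamer.

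Over the 300 bases before the gene start, the core was found in 15 of the 15 called MBF targets and in 0 of the 4 that were not called, beside 525 of 4926 protein-coding genes (10.7%). The full hexamer was in 9 of the 15, beside 142 of 4926 (2.88%). Elements farther upstream were not searched. With 250 bases before and 50 after the gene start, 2 of the 4 targets not called also held the core. The elements found before *ssb1* lie within *mik1*, because these divergent genes adjoin, so a match says which letters stand there and not which gene they serve. Outside the MBF list, the core was found in 13 of 46 protein-coding genes that were higher (28.3%) and in 7 of 84 that were lower (8.33%), and the hexamer in 8 of 46 (17.4%) and 1 of 84 (1.19%).

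The origin licensing genes *cdc18* and *cdt1* were among the MBF targets with the largest differences. *cdc18*, whose product loads the replicative helicase at origins, had 1347 and 1244 normalized counts at 120 min and 1076 and 1033 at 140 min in Nrm1-SD, against 587 and 646 at 120 min and 701 and 704 at 140 min in Nrm1. Every Nrm1-SD library was above every Nrm1 library, and the level was 1.77-fold higher over both time points (0.83 ± 0.044 log2, SE, limma adjusted p = 5.9e-21). *cdt1*, the partner of Cdc18 in licensing, had 188 and 192 at 120 min and 171 and 191 at 140 min in Nrm1-SD, against 102 and 103 at 120 min and 141 and 133 at 140 min in Nrm1. Its difference was 0.64 ± 0.077 (adjusted p = 1.3e-08), with the groups apart at both times. *cdt2*, which encodes the substrate receptor of the ubiquitin ligase that removes Cdt1 and the ribonucleotide reductase inhibitor Spd1 in S phase, had 490 and 460 at 120 min and 415 and 459 at 140 min in Nrm1-SD. In Nrm1 it had 177 and 185 at 120 min and 225 and 205 at 140 min. This was the largest difference among the MBF targets, 2.30-fold (1.20 ± 0.073, adjusted p = 1.4e-18).

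Of the genes of nucleotide supply, *cdc22*, *dut1* and *suc22* were higher. *cdc22*, the large subunit of ribonucleotide reductase, had 9473 and 8934 normalized counts at 120 min and 7723 and 7557 at 140 min in Nrm1-SD, against 4577 and 4356 at 120 min and 4751 and 4750 at 140 min in Nrm1. It was 1.82-fold higher (0.86 ± 0.057, adjusted p = 2.2e-17), and the lowest Nrm1-SD library was above the highest Nrm1 library. *dut1*, the dUTPase that keeps uracil out of DNA, had 465 and 530 at 120 min and 469 and 521 at 140 min in Nrm1-SD, against 356 and 282 at 120 min and 357 and 399 at 140 min in Nrm1 (0.52 ± 0.069, adjusted p = 3e-07). The small subunit *suc22*, which is not an MBF target of the list, was also called but differed by only 0.13 ± 0.037 (adjusted p = 0.042). This call was lost without any 1 of 4 libraries, replicate 2 of Nrm1 at 120 or 140 min, replicate 2 of Nrm1-SD at 120 min or replicate 1 of Nrm1-SD at 140 min, with adjusted p-values of 0.15 to 0.36, and also with culture means (0.33) and with only the 8 libraries in the fit (0.13). The inhibitor *spd1*, also on the list of 3 genes for this enzyme, had an estimate of 0.09 and was not called.

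Among the regulators of the cycle and of MBF itself, *tos4*, a forkhead-associated domain protein, had 5520 and 5339 normalized counts at 120 min and 4592 and 4369 at 140 min in Nrm1-SD, against 2872 and 2611 at 120 min and 2797 and 2857 at 140 min in Nrm1 (0.83 ± 0.047, adjusted p = 1.1e-19). The co-repressor gene *yox1* had 677 and 614 at 120 min and 469 and 401 at 140 min in Nrm1-SD, against 340 and 327 at 120 min and 275 and 268 at 140 min in Nrm1 (0.81 ± 0.072, adjusted p = 1.6e-12). Thus both co-repressor genes were higher in the mutant. The mutated gene *nrm1* itself had 730 and 599 at 120 min and 608 and 563 at 140 min in Nrm1-SD, against 461 and 500 at 120 min and 404 and 418 at 140 min in Nrm1 (0.49 ± 0.091, adjusted p = 0.00036). It is not deleted in either strain, and its level says nothing of the allele. The S-phase cyclin *cig2* had 2010 and 2017 at 120 min and 1706 and 1582 at 140 min in Nrm1-SD, against 1451 and 1435 at 120 min and 1451 and 1366 at 140 min in Nrm1 (0.35 ± 0.065, adjusted p = 0.00025).

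The cohesin genes were higher at both times, with estimates of 0.55 at 120 min and 0.56 at 140 min for *rad21* and 0.39 and 0.41 for *psm3*. *rad21*, the kleisin subunit of the ring that holds sister chromatids together, differed by 0.55 ± 0.068 (adjusted p = 3.1e-08), with 494 to 570 normalized counts in Nrm1-SD and 334 to 397 in Nrm1. *psm3*, one of its long coiled-coil subunits, differed by 0.40 ± 0.065 (adjusted p = 2.3e-05), with 977 to 1089 in Nrm1-SD and 762 to 790 in Nrm1. Its partner *psm1*, chosen after its values were seen, differed by 0.26 ± 0.065 (adjusted p = 0.015), and its window also holds ACGCGT. Without replicate 1 of either strain at either time, *psm1* was not called (adjusted p = 0.13 to 0.17).

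The targets of repair and of the replication checkpoint followed. *ctp1*, which starts the resection of broken DNA ends, differed by 0.36 ± 0.060 (adjusted p = 2.8e-05), with 460 to 530 normalized counts in Nrm1-SD and 352 to 421 in Nrm1. *mrc1*, the mediator of the replication checkpoint, differed by 0.36 ± 0.060 (adjusted p = 5.6e-05), and *ssb1*, the large subunit of the single-stranded DNA binding protein RPA, by 0.30 ± 0.051 (adjusted p = 6.8e-05). Of the 17 genes of a further list for recombination and checkpoints only *rad54*, a recombination gene, was called, at 0.31 ± 0.050 (adjusted p = 1.7e-05). The translesion polymerase genes *kpa1* (0.51 ± 0.059, adjusted p = 5e-09) and *rev1* (0.45 ± 0.10, adjusted p = 0.0059), chosen after their values were seen, were higher as well.

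A further 4 MBF targets were not called. The CDK-inhibitory kinase gene *mik1* had 84.6 and 87.8 normalized counts at 120 min and 76.5 and 67.2 at 140 min in Nrm1-SD, against 69.9 and 58.7 at 120 min and 63.4 and 77.8 at 140 min in Nrm1, so the groups were apart at 120 min and overlapped at 140 min (0.23 ± 0.11, adjusted p = 0.40). *srw1*, the activator of the anaphase-promoting complex in G1, had an estimate of 0.06, *eso1*, a translesion polymerase joined to a cohesin acetyltransferase, 0.06, and the mismatch repair gene *msh6* −0.02, with adjusted p-values of 0.87, 0.83 and 0.98. *klp8*, a kinesin gene that starts 1071 bases from *srw1* on the other strand and was chosen after its values were seen, was higher by 0.36 ± 0.061 (adjusted p = 3.5e-05).

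**Figure D2:**
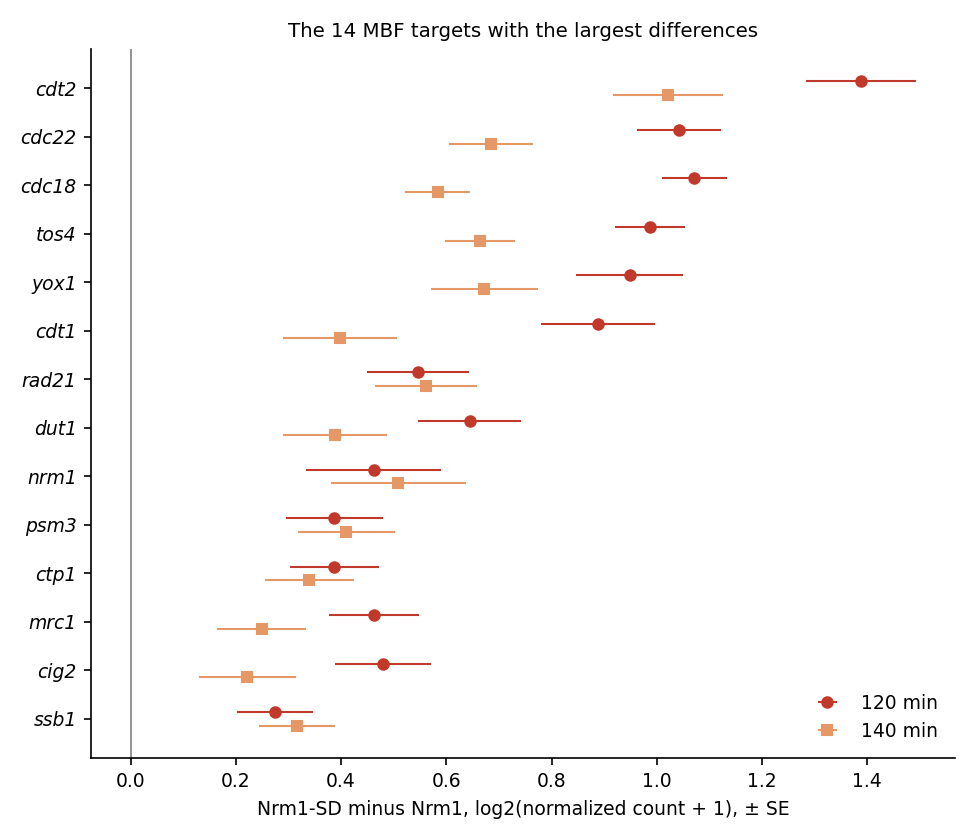
Difference Nrm1-SD minus Nrm1 of the 14 MBF targets with the largest differences on the log2(normalized count + 1) scale (x axis), as limma estimates at 120 min (circles) and 140 min (squares) with bars of ± SE, ordered by the difference over both times. All estimates lie above 0, from 1.39 at 120 min for *cdt2* down to 0.22 at 140 min for *cig2*, and the circle lies right of the square for the 6 uppermost genes.

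The genes that encode MBF and its co-activators did not show such a difference, and 0 of the 5 were called. The estimates were 0.12 ± 0.054 for *cdc10*, 0.08 ± 0.066 for *rep2*, 0.07 ± 0.076 for *res2*, −0.00 ± 0.22 for *rep1* and −0.09 ± 0.057 for *res1*, with adjusted p-values of 0.38, 0.76, 0.82, 1.0 and 0.64. *rep1* had only 15.4 to 26.9 normalized counts in Nrm1-SD and 19.2 to 23.8 in Nrm1, so a moderate difference would not have been detectable at this depth.

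The difference between the strains narrowed between the time points for *cdc18*. It was 1.07 ± 0.062 (log2) at 120 min and 0.58 ± 0.062 at 140 min, a change of −0.49 ± 0.087 with an adjusted p of 0.0077. The level was lower at 140 than at 120 min in Nrm1-SD and higher at 140 than at 120 min in Nrm1. It was the 1 feature of 7431 (0.0135%) called for such a change, and 187 had an unadjusted p under 0.05. edgeR's quasi-likelihood test and DESeq2 on the recovered reads each called the same 1 feature, with adjusted p-values of 0.0065 and 0.0017. The call was not reached with only the 8 libraries in the fit (adjusted p = 0.50), with total-count scaling (0.28), or without replicate 1 of Nrm1 at 120 min (0.27), replicate 1 of Nrm1-SD at 120 min (0.40) or replicate 2 of Nrm1-SD at 140 min (0.19), although the estimate stayed between −0.56 and −0.42. Of the 15 called MBF targets 10 had the larger estimate at 120 min, among them *cdt2* (1.39 at 120 min and 1.02 at 140 min), *cdc22* (1.04 and 0.69), *cdt1* (0.89 and 0.40) and *yox1* (0.95 and 0.67), but none of these changes passed the test.

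The levels at earlier times differed between genes. *cdc18* in Nrm1-SD was nearly flat from the wave into the trough, with 1380 ± 23.9 normalized counts at 60 min, 1389 ± 71.9 at 80 min, 1340 ± 35.9 at 100 min and 1296 ± 72.8 at 120 min (SD, n = 2). In Nrm1 it had 2700 ± 48.1 at 60 min, 1138 ± 58.3 at 80 min, 712 ± 53.6 at 100 min and 616 ± 41.2 at 120 min. *cdt2* in Nrm1-SD had 567 ± 38.2 at 60 min, 646 ± 89.5 at 80 min and 703 ± 81.0 at 100 min, against 1743 ± 13.6, 664 ± 43.2 and 244 ± 13.3 at the same times in Nrm1. *cdt1* differed from these in that it fell steeply in both strains, with 661 ± 5.12 at 60 min and 282 ± 13.0 at 100 min in Nrm1-SD against 2172 ± 183 and 186 ± 10.2 in Nrm1. At 60 and 80 min together 13 of the 15 genes were lower in Nrm1-SD (1.39% of all features), so the same genes were mostly lower at the wave and higher in the trough. The exceptions that were not called at the wave were *rad21* (−0.19) and *cig2* (−0.15).

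**Figure D3:**
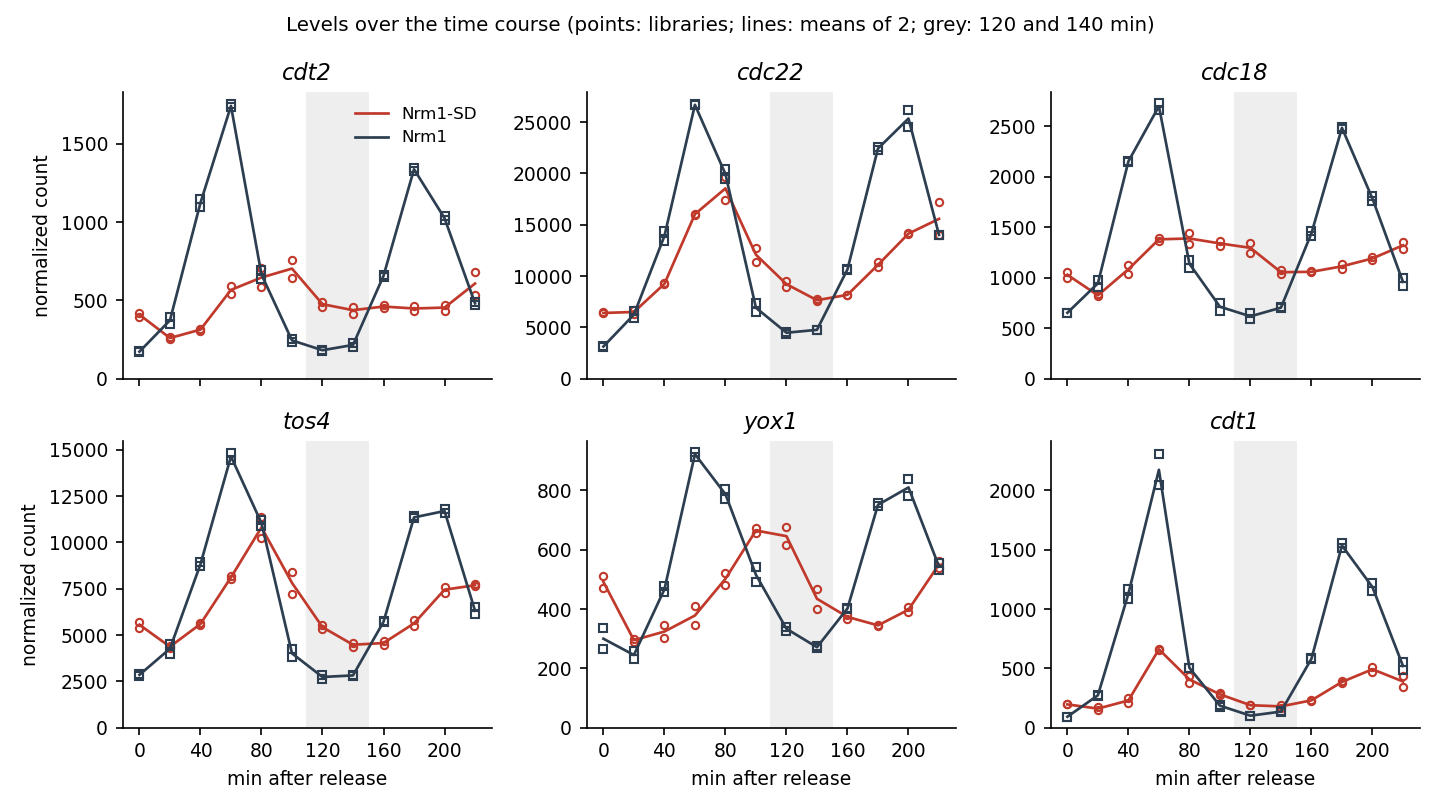
Normalized counts of 6 MBF targets in Nrm1-SD and Nrm1 against min after release, with 1 point per library, lines through the means and the 120 to 140 min interval shaded. *cdc18* of Nrm1-SD stays between 1296 and 1389 from 60 to 120 min, while that of Nrm1 goes to 2700 at 60 min and 616 at 120 min.

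The difference was also set beside that in asynchronous growth. Replicate 2 of asynchronous Nrm1, part of this reference, had the fewest reads of all 78 libraries, 2685381. Relative to sampling noise, the 2 asynchronous Nrm1 replicates also differed more from each other than the replicates of any trough group. Of the 15 genes, 1 was called higher in asynchronous Nrm1-SD, 2 were called lower and 12 were not called, beside 2.4% of all features called in that comparison. The gene that was higher was *cig2*, with 1466 and 1530 normalized counts in asynchronous Nrm1-SD and 910 and 901 in asynchronous Nrm1 (0.73, adjusted p = 9e-08). The genes that were lower were *cdc22* (−0.35, adjusted p = 0.0077) and *cdt1* (−1.0, adjusted p = 1.3e-09). When the difference in the trough was tested against the asynchronous difference, it was larger for 8 of the 15 genes, beside 0.35% of all features with a larger and 0.767% with any called difference: *cdt1* (by 1.65), *cdt2* (1.38), *cdc22* (1.21), *tos4* (0.82), *cdc18* (0.81), *yox1* (0.59), *ssb1* (0.51) and *rad21* (0.50). Averaged over the time points by replicate number, the count was 6 of 15. For the other genes no difference between the settings was shown. For *mik1* the trough exceeded the asynchronous difference by 1.59 (adjusted p = 1.7e-08), since it had 117 and 116 in asynchronous Nrm1-SD and 268 and 339 in asynchronous Nrm1.

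**Figure D4:**
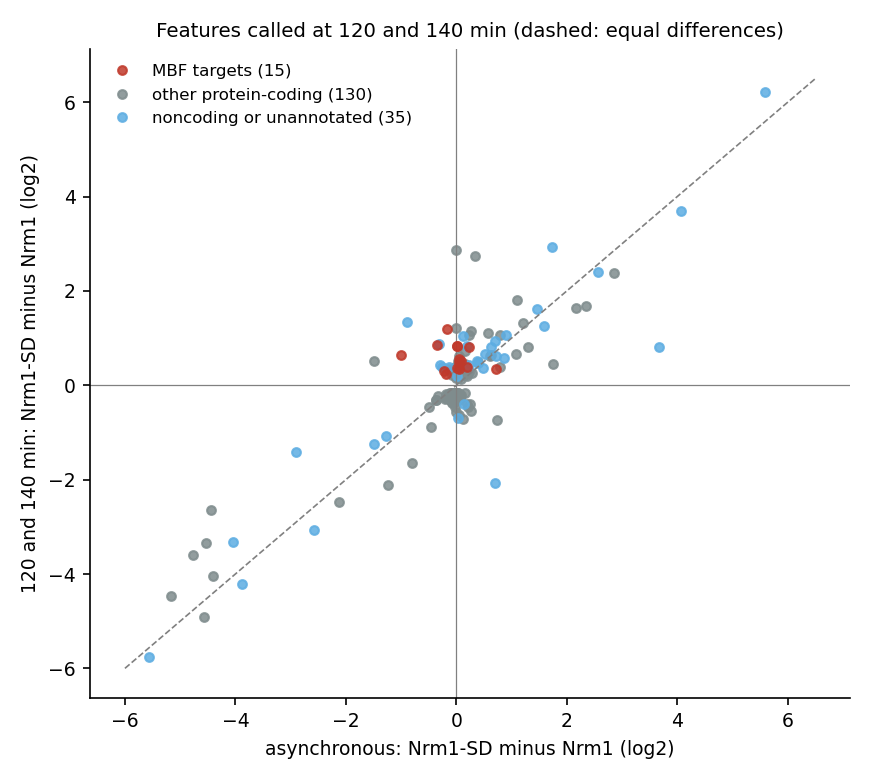
Difference Nrm1-SD minus Nrm1 (log2) over 120 and 140 min (y axis) against that in asynchronous cultures (x axis) for the 180 features called over both times, with the 15 MBF targets in red and a dashed line where the differences are equal. The MBF targets lie above 0 on the y axis and between −1.0 (*cdt1*) and 0.73 (*cig2*) on the x axis, whereas *gdt1* is at −4.48 in the trough and −5.17 in asynchronous cultures.

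The histone activator *ams2* and 4 of the 9 core histone genes were higher too. Of the 10 genes of the histone list 5 were called higher, beside 1.16% of all features, and none lower. *ams2*, which encodes a GATA-type factor that activates core histone genes, had 1143 and 975 normalized counts at 120 min and 1113 and 929 at 140 min in Nrm1-SD, against 585 and 608 at 120 min and 634 and 666 at 140 min in Nrm1 (0.73 ± 0.074, adjusted p = 8.3e-11). Its upstream window holds ACGCGT, and the trough difference exceeded the asynchronous one by 0.58. The core histone genes *htb1*, *hta1*, *hht1* and *hhf1* were higher by 0.39 ± 0.077, 0.39 ± 0.092, 0.36 ± 0.097 and 0.35 ± 0.083, with adjusted p-values of 0.00069, 0.0095, 0.038 and 0.0096. *hta1* was not called without replicate 2 of Nrm1 at 120 min (0.11), *hhf1* not without replicate 2 of Nrm1 at 140 min (0.17), and *hht1* not without either of these, replicate 1 of Nrm1-SD at 120 min or replicate 1 of Nrm1-SD at 140 min (0.16 to 0.20). *htb1*, for example, had 5553 and 5215 at 120 min and 2750 and 2683 at 140 min in Nrm1-SD, against 4065 and 3805 at 120 min and 2297 and 2028 at 140 min in Nrm1, so its level fell between the time points in both strains. The other core histone genes, such as *hta2* (0.18, adjusted p = 0.29), were not called.

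Histone levels changed quickly through the interval, and they were used to set an offset between the strains. This takes the histone difference as one of timing alone, which was not tested, and the histone activator *ams2* was itself higher in Nrm1-SD. The histone level was lower in Nrm1-SD while it rose and higher while it fell. At 80 min, on the rise, it was 0.050 and 0.17 in Nrm1-SD, below 0.66 and 0.73 in Nrm1. The offset was set on the fall alone, at 120 and 140 min, and none was computed for the rise. As *ams2* differed between the strains, the offset does not place the cultures independently of the strain. The histone level of Nrm1-SD equalled that of Nrm1 4.49 min earlier at 120 min and 4.68 min earlier at 140 min. In a setting added after the data were seen, Nrm1 was read by interpolation at that offset. Then 117 features were called (63 higher, 54 lower), 104 of them shared with the 180, and the histone genes were no longer called, which follows from the way the offset was set. Of the MBF targets 15 were called higher (0.848% of all features). In another setting added afterwards, Nrm1-SD at 140 min was set against Nrm1 at 120 min. Both Nrm1-SD libraries were above both Nrm1 libraries for 15 of the 15 genes, which held for 25.4% of all features, and 11 were called higher (1.76%). Set against Nrm1 at 100 min, both Nrm1-SD libraries at 140 min were higher for 10 of the 15, which held for 32.9% of all features. The 15 genes were chosen as higher at these times, so these counts are a description. A lag that differs between groups of genes was not tested.

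Other lists of the cell cycle had 0 or 1 called gene each, beside 2.42% of all features called. Of 11 cyclins and CDK regulators 1 was higher, *cig2*, of 11 mitosis genes 0 were called, and of 10 genes of cytokinesis and cell separation 1 was higher, *cdc15*, an F-BAR protein of the contractile ring (0.31 ± 0.081, adjusted p = 0.030). The call of *cdc15* was lost without replicate 2 of Nrm1 at 120 min, replicate 1 of Nrm1 at 140 min, replicate 1 of Nrm1-SD at 120 min or replicate 2 of Nrm1-SD at 140 min (adjusted p = 0.15 to 0.22). None of the 30 genes of the replication machinery outside the MBF list was called, and their mean level was 0.015 ± 0.0099 in Nrm1-SD and 0.015 ± 0.0098 in Nrm1 (SD, n = 2 cultures each). The count of called genes was also 0 of 141 ribosomal protein genes, 0 of 11 stress response genes, 0 of 9 iron genes and 0 of 6 zinc genes. Of 10 heat shock genes 1 was lower, *hsp16*, a small heat shock protein, with 88.5 and 73.9 normalized counts at 120 min and 50.7 and 55.1 at 140 min in Nrm1-SD, against 107 and 130 at 120 min and 79.8 and 97.1 at 140 min in Nrm1 (−0.63 ± 0.16, adjusted p = 0.016). edgeR did not call *hsp16* (adjusted p = 0.38), nor did limma without replicate 2 of Nrm1 at 120 or 140 min or of Nrm1-SD at 120 min (0.11 to 0.14).

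The Nrm1-SA strain, in which the same sites cannot be phosphorylated, was sampled at the same times and shares the Nrm1 libraries as its control, so its values are only set beside those of Nrm1-SD. Of the 19 MBF targets 11 were called higher and 0 lower in Nrm1-SA over both time points, beside 905 and 823 of all 7431 features. Their median difference was 0.21, beside 0.40 in Nrm1-SD. Of the 10 genes of the histone list 6 were called higher in Nrm1-SA. For 6 chosen targets, differences from Nrm1 were 1.20 in Nrm1-SD and 1.24 in Nrm1-SA for *cdt2*, 0.86 and 0.42 for *cdc22*, 0.83 and 0.46 for *cdc18*, 0.83 and 0.13 for *tos4*, 0.81 and 0.02 for *yox1*, and 0.55 and 0.58 for *rad21*. The cytokinesis genes were between −1.29 and −1.03 in the Nrm1-SA libraries, beside −2.27 to −1.86 in Nrm1-SD and −2.19 to −1.83 in Nrm1, and the part of this in the values above was not tested. At 140 min the pair of Nrm1-SA replicates differed by less than sampling noise, and they were counted as 1 sample.

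Some neighbours of MBF targets were also called, and 91.6% of all tested features overlap a gene on the other strand. The library kit keeps the strand, but whether HTSeq counted by strand is not given in the sources used here, so values of overlapping genes are uncertain. SPNCRNA.2863, which overlaps *tos4* antisense over 2050 bases, was higher by 0.84 ± 0.19 (adjusted p = 0.0057), and SPNCRNA.3891, which covers *cdc22* antisense over 3020 bases, by 0.38 ± 0.11 (adjusted p = 0.048). SPNCRNA.2863 was not called without replicate 2 of Nrm1 at 120 min (0.13), and SPNCRNA.3891 not without replicate 1 of any group or replicate 2 of Nrm1 at 140 min (0.11 to 0.29). *bos1*, a SNARE gene that begins 165 bases after the end of *tos4* on the same strand, went the other way. It had 155 and 172 normalized counts at 120 min and 222 and 250 at 140 min in Nrm1-SD, against 313 and 309 at 120 min and 337 and 324 at 140 min in Nrm1 (−0.70 ± 0.084, adjusted p = 1.1e-08). In asynchronous cultures *bos1* had 428 and 450 in Nrm1-SD and 384 and 419 in Nrm1, and the trough and asynchronous differences differed by −0.83 (adjusted p = 0.00033). These 3 features were chosen after their values were seen.

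The largest changes of all lay outside the cell cycle lists, and many were also present in asynchronous cultures. Of all 86 features higher in the trough, 20 were also called higher in asynchronous Nrm1-SD, 3 were called lower and 63 were not called. Among all 7431 features 115 were called higher there. Of the 94 features lower in the trough, 18 were also called lower and 76 were not called, beside 63 of all 7431 called lower there. On the right arm of chromosome I, SPAC186.06 had 7.69 and 4.62 normalized counts at 120 min and 5.17 and 1.10 at 140 min in Nrm1-SD, against 148 and 139 at 120 min and 157 and 155 at 140 min in Nrm1. Its neighbour *gdt1* had 37.2 to 44.7 in Nrm1-SD and 842 to 949 in Nrm1 (−4.48 ± 0.18, adjusted p = 2.8e-26), and SPAC186.04c, SPAC186.03 and SPAC750.01 of the same stretch were lower as well (−4.04, −3.60 and −2.48). These 5 genes lie at chrI:5535179-5556768 in ASM294v3, within 100 kb of the right end of the chromosome. The caution given below for values of genes at chromosome ends holds for them too. The stretch chrII:2118146-2125360 was lower too, with SPBC23G7.10c (−3.35), *mag2*, a DNA glycosylase gene (−2.12), SPBC23G7.13c (−0.89), and the noncoding RNA SPNCRNA.5499 (−4.22). The noncoding RNA SPNCRNA.4043 had 0 and 1.54 at 120 min and 0 and 2.20 at 140 min in Nrm1-SD, against 88.4 and 91.7 at 120 min and 107 and 78.8 at 140 min in Nrm1.

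Features near chromosome ends were frequent among those that rose. Within 100 kb of an end of chromosome I or II lay 27 of 83 features that were higher (32.5%) and 5 of 93 that were lower (5.38%), beside 127 of all 7413 with a position (1.71%). They include SPBPB2B2.18 (2.86 ± 0.39, adjusted p = 4e-07), SPBC1348.06c (2.74 ± 0.58, adjusted p = 0.0022), SPAC869.01 (2.39 ± 0.35), SPAC869.03c (1.81 ± 0.31), SPAC212.12 (1.69 ± 0.23) and *pfl9*, a cell surface flocculin gene (1.63 ± 0.14). SPBPB2B2.18 had 74.0 and 63.1 normalized counts at 120 min and 48.6 and 37.4 at 140 min in Nrm1-SD, against 7.54 and 6.42 at 120 min and 4.34 and 8.65 at 140 min in Nrm1, and none of the asynchronous libraries of either strain had a read of it. Genes at chromosome ends can have near-identical copies at other ends, so their values are uncertain. *mal1*, a maltase gene, was higher by 1.31 ± 0.085 (adjusted p = 1.2e-17), while SPNCRNA.1317, which lies antisense within it, was lower (−3.32), and both differed alike in asynchronous cultures (1.21 and −4.05). The noncoding RNA SPNCRNA.4965 on chromosome II had 63.1 to 114 in Nrm1-SD and 2.88 to 11.7 in Nrm1. SPMTR.01, which matched no entry of ASM294v3 and was chosen after its values were seen, had 64.4 and 83.2 at 120 min and 67.2 and 79.3 at 140 min in Nrm1-SD and 0 in every Nrm1 library of the trough, at least 22.4-fold higher with a floor of 3 reads per library.

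Of 12 genes of mating 2 were called higher and 1 lower, beside 1.16% and 1.26% of all features. The sample titles give no mating type for either strain. *map3*, the receptor for M-factor, had 98.1 and 114 normalized counts at 120 min and 93.1 and 108 at 140 min in Nrm1-SD, against 43.9 and 44.9 at 120 min and 54.7 and 46.1 at 140 min in Nrm1 (1.11 ± 0.13, adjusted p = 5e-09). It overlaps *his6* on the other strand over 1755 bases, and *his6* was lower (−0.33 ± 0.058). *ste6*, which encodes the guanine nucleotide exchange factor of Ras1, was higher in the trough (0.52 ± 0.13, adjusted p = 0.017) and lower in asynchronous Nrm1-SD (−1.50, adjusted p = 5.6e-08), a difference of 2.02 between the settings. Its call in the trough was lost without replicate 2 of Nrm1 at 120 or 140 min, replicate 1 of Nrm1-SD at 120 min or replicate 2 of Nrm1-SD at 140 min (adjusted p = 0.12 to 0.20). *mfm2*, a gene for the M-factor precursor, was lower in both, with a difference of −2.65 (log2) in the trough and −4.44 in asynchronous cultures.

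The genes that were lower in Nrm1-SD formed a broad group of small differences. Of the 84 protein-coding genes called lower 63 (75%) differed by less than 0.35 in size. Examples chosen after their values were seen, which stand for no group, are *leu3* (−0.26 ± 0.050, adjusted p = 0.00064), *arg4* (−0.23 ± 0.054, adjusted p = 0.0097) and *lys1* (−0.21 ± 0.051, adjusted p = 0.011), all of amino acid synthesis, the ribosome assembly factor *mdn1* (−0.35 ± 0.065, adjusted p = 0.00037) and the TOR kinase *tor2* (−0.22 ± 0.053, adjusted p = 0.012, and 0.12 without replicate 2 of Nrm1 at 120 min). *arg4* had 4768 and 4803 normalized counts at 120 min and 6208 and 5916 at 140 min in Nrm1-SD, against 5545 and 5573 at 120 min and 7377 and 6923 at 140 min in Nrm1, so the groups were apart at each time but overlapped across times. With Nrm1 read at the histone level of Nrm1-SD, *arg4* and *lys1* were not called (adjusted p = 0.21 and 0.19). The ammonium transporter gene *amt3* stood out by size, with 47.1 and 44.7 at 120 min and 42.4 and 48.5 at 140 min in Nrm1-SD, against 106 and 108 at 120 min and 199 and 190 at 140 min in Nrm1 (−1.64 ± 0.15, adjusted p = 8.2e-12). Of the 94 features that were lower, 45 were still called with Nrm1 read at the histone level of Nrm1-SD, against 59 of the 86 that were higher.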

How the data were processed

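PolyA RNA of *cdc25-22* cells was sequenced by the authors in asynchronous cultures and at 12 time points. They deposited 1 table of normalized counts, a signal that is never negative: HTSeq counts per feature of STAR alignments, scaled by the DESeq2 size factor of each library. FastQC, Trimmomatic and the build ASM294v2 are named in the submitters' processing notes. Whole reads were recovered (100% of values within 0.001 of a whole read).

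Groups came from the labels. limma 3.58.1 (R 4.3.3, intensity trend) was fitted to log2(normalized count + 1) with 39 condition means and 77 libraries, the Nrm1-SA replicates at 140 min entering as their mean. The trough difference is the mean of the contrasts at 120 and 140 min, so time points of 1 culture count as independent. That libraries of a strain with the same replicate number come from 1 culture is not stated in the labels, and culture means assume it. Benjamini-Hochberg adjustment ran over 7431 features with a mean of at least 10, at the threshold of 0.1. This scale makes changes of low genes look smaller than they are. edgeR 4.0.16 (quasi-likelihood) and DESeq2 1.42.0 on recovered reads, the pseudocount, filter, scaling, replicate block, culture means and leaving out each library were alternatives. The fits were tested on simulated data. Python 3.11.15, pandas 2.3.3, numpy 2.4.6 and matplotlib 3.10.9 were used for sums and plots.

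Gene names, positions and sequences came from ASM294v3 of RefSeq, to which 12603 of 12683 features matched by systematic ID. The members and the gene lists were chosen with earlier results of these data known. Named are all MBF targets and MBF subunits, other list members called, the 10 protein-coding genes and 3 noncoding RNAs with the largest called rise and fall whose groups did not overlap at either time, and features with a called change between the time points. Any other gene was chosen after its values were seen. Such genes are marked where they are named, apart from *spd1*, *hta2*, *his6*, *erj5*, *aro1*, *ilv1*, *tra1* and *gcn2*. Some values are not reported here.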

Additional observations from a re-analysis of the deposited data

Results flagged for a closer look

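The difference of *cdc18* between Nrm1-SD and Nrm1 changed by −0.49 (log2) from 120 to 140 min, and it is listed because the change itself passed the test. The same held for the comparison of the trough with asynchronous growth, where the difference between the strains was larger in the trough by 1.65 for *cdt1*, 1.59 for *mik1*, 1.38 for *cdt2*, 1.21 for *cdc22*, 0.82 for *tos4*, 0.81 for *cdc18*, 0.59 for *yox1*, 0.51 for *ssb1* and 0.50 for *rad21*. Outside the MBF targets it was larger by 0.58 for *ams2*, by 2.02 for *ste6*, which was higher in the trough and lower in asynchronous Nrm1-SD, and by 2.86 for SPBPB2B2.18, which had no reads in asynchronous libraries, so that this value is the trough difference itself. For *mfm2* it was 1.78 because the gene was lower in both settings and less so in the trough. No group here has 4 or more samples, so single libraries were not screened for outliers.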

How the results depend on the processing

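Over both time points 180 features were called, 215 with edgeR (175 shared) and 164 with DESeq2 (153 shared). The count moved to 306 with only the 8 libraries in the fit, to 39 with at least 2-fold, and, in the settings added after seeing the data, to 117 with Nrm1 read at the histone level of Nrm1-SD and 275 for Nrm1-SD at 140 min against Nrm1 at 120 min. At 120 min the count of 81 moved to 139 with only the 8 libraries and 38 with at least 2-fold, and at 140 min the count of 68 moved to 33 with at least 2-fold. The 1 call of a change between the times became 0 with only the 8 libraries, with total-count scaling and with at least 2-fold. The 57 calls of a trough difference unlike the asynchronous one became 30 with a pseudocount of 8, 36 with a mean of at least 50, 28 with edgeR, 22 with DESeq2, 12 with culture means, 30 with only the libraries of the comparison and 30 with at least 2-fold. Leaving out each library gave 110 to 143 calls over both times, 46 to 76 at 120 min, 35 to 68 at 140 min, 0 to 1 for the change and 43 to 54 against asynchronous cultures. The 15 MBF targets called became 14 to 15 without a library and 1 with at least 2-fold. For Nrm1-SD at 140 min against Nrm1 at 120 min these estimates reversed: *htb1* −0.53, *hta1* −0.43, *hht1* −0.87, *hhf1* −0.79, *hta2* −0.905, *erj5* −0.20, *arg4* 0.12, *lys1* 0.097, *aro1* 0.12, *ilv1* 0.067, *mdn1* 0.14, *tra1* 0.068 and *gcn2* 0.059; that setting compares different times by construction. Elsewhere the cause was not tested. Of 81 named features called, 58 were called in each of 23 other settings, which leave out the added ones.

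Same-numbered libraries of the strains correlated at 0.0073 at 120 min and 0.091 at 140 min, so the numbers do not pair them. With the replicate block 200 features were called over both times, all 180 among them, and 100 at 120 min, 71 at 140 min, 1 for the change and 71 against asynchronous cultures, with 15 MBF targets. The libraries of 1 strain with the same number correlated between 120 and 140 min at 0.28 in Nrm1-SD and 0.12 in Nrm1. With the culture as a random block 156 features were called over both times, all among the 180, and with culture means 184, of which 135 were shared, with 15 MBF targets each.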
